A study of Mus musculus with 6 samples.

Results

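The 33 genes described here are textbook genes of DNA replication and cell division, taken by symbol from the 24564 genes that the files of the series list. All 33 were found by symbol. They were followed over basal and precursor cells of the olfactory neuron lineage, over the neurons these cells give rise to, and over B lineage and erythroid cells of the same tissue, in all 6 single-cell libraries. The 10 S phase members are Pcna, Mcm2, Mcm3, Mcm4, Mcm5, Mcm6, Mcm7, Rrm2, Tyms and Ccne2. The 23 G2 and mitosis members are Mki67, Top2a, Ccnb1, Ccnb2, Ccna2, Cdk1, Birc5, Cdca8, Aurka, Aurkb, Plk1, Bub1, Bub1b, Cenpf, Cenpe, Kif11, Kif23, Nusap1, Tpx2, Hmmr, Prc1, Ube2c and Cdc20.

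A dividing cell copies its DNA in S phase and separates the copies in mitosis. Most genes of the first step are transcribed around the entry into S phase under E2F factors. Most genes of the second are held off by the DREAM complex until G2, through CHR elements in their promoters. CCAAT boxes are also common in those promoters. The olfactory epithelium makes neurons throughout life. Horizontal basal cells are its largely resting stem cells, globose basal cells divide, immediate neuronal precursors divide and then leave the cycle, and the olfactory sensory neurons (OSNs) that they form no longer divide. B cell precursors divide in bursts around the rearrangement of their immunoglobulin genes, and erythroid precursors divide until late in their maturation.

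Single cells of the main olfactory epithelium, dissociated with papain, were profiled with 10x Genomics chemistry, and each library is labelled as 1 genotype. The swap group (2 libraries) carried both Cbx swap alleles with a Cre recombinase active in neuronal lineages, so that after recombination the Cbx1 coding sequence (HP1 beta) is replaced by Cbx5 (HP1 alpha) under the Cbx1 promoter. Of the 2 control libraries, replicate 1 is labelled wild type with the Cre and replicate 2 as both swap alleles without it. One further library is labelled gg8-tTA; tetOP2iresGFP and 1 gg8-tTA alone: the gg8-tTA driver acts in OSNs, so that the P2 receptor is forced on in neurons of the first and both carry the driver. The ages and the number of animals behind a library were not given in the labels, and p-values measure the spread between these libraries.

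The labels give the cell type as OSN and the series text speaks of sorted cells, whereas every library held cells with the defining markers of basal cells, B lineage cells and erythroid cells. Cells were assigned by marker lists that hold none of the 33 genes. Krt5 reached 1038 to 1546 CPM (the UMIs of a gene scaled to a sum of 1000000 UMIs over the gated cells of a library) in horizontal basal cells, Neurod1 1054 to 1852 CPM in immediate neuronal precursors, Omp 2398 to 9498 CPM in mature OSNs and Cd79a 1895 to 2357 CPM in B lineage cells. Each library gave 136 to 317 horizontal basal cells, 45 to 90 globose basal cells, 78 to 281 precursors, 439 to 988 immature and 581 to 1201 mature OSNs, 30 to 502 B lineage cells and 23 to 442 erythroid cells. Total depth was 58498968 to 63277934 UMIs in swap and control mice, 32005196 for gg8-tTA; tetOP2iresGFP and 35298494 for gg8-tTA, and any pair of libraries shared 0 to 20 cell barcodes. Libraries stood apart in 3 ways: control replicate 2 kept 57.5% of its barcodes after the minimum of 1000 UMIs and 500 genes against 84.4% to 100% elsewhere, swap replicate 1 differed from the other 5 libraries in the members' level in horizontal basal cells, and Xist was at 1274 to 1468 CPM in swap replicate 1 and both gg8-tTA libraries but at 0.293 to 0.584 CPM in the other 3. The library names of replicate 1 of both genotypes begin alike, as do those of replicate 2, so values are also compared within a replicate number below. The swap and control libraries of replicate 1 also differ in Xist, and genotype and Xist level cannot be told apart within that pair.

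The promoters of 28 members were found in the RefSeq table for GRCm38.p6, and 5 stretches are shown because the results below turn on the contrast between S phase and mitotic members. Each runs over the 180 bases before the annotated start, written 5′ to 3′ on the strand of the gene. Capitals mark an E2F-type motif (TTGGCGC), a CHR-type motif (TTTGAA) or a CCAAT box (CCAAT), on either strand. The Mcm5 stretch is chr8:75109329-75109508 (plus strand), the Mcm6 stretch chr1:128359706-128359885 (minus strand), the Mki67 stretch chr7:135716380-135716559 (minus strand), the Top2a stretch chr11:99024190-99024369 (minus strand) and the Kif11 stretch chr19:37376202-37376381 (plus strand).
Mcm5: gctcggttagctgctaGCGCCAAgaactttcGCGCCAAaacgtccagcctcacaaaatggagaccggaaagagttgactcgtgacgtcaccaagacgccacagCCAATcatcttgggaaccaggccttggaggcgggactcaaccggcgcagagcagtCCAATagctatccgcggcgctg
Mcm6: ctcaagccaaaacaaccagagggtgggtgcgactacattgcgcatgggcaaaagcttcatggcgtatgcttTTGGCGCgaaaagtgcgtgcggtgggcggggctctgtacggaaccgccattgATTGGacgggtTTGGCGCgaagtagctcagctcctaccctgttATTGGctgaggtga
Mki67: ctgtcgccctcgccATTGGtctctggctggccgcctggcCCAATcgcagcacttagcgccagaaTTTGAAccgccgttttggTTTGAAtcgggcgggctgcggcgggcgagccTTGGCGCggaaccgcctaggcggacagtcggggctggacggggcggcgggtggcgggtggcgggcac
Top2a: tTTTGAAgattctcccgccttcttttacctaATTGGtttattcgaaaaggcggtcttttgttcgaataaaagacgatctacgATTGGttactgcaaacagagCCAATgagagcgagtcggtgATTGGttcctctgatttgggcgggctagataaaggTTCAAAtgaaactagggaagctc
Kif11: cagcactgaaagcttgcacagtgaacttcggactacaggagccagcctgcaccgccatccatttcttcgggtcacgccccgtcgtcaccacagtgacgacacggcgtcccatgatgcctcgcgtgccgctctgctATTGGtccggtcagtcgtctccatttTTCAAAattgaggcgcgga

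Mcm5 and Mcm6, subunits of the replicative helicase, each held a pair of TTGGCGC matches, and Top2a and Kif11, of mitotic chromosomes and the spindle, held TTTGAA and no TTGGCGC. Mki67 held both motifs. Over the window from 250 bases before to 50 after the start, TTGGCGC stood in 4 of 8 matched S phase members (Mcm3, Mcm5, Mcm6 and Mcm7) and 3 of 20 matched G2 and mitosis members (Ccnb1, Cdk1 and Mki67), against 2.57% of 27025 promoters. TTTGAA stood in 1 of 8 (Mcm2) and 15 of 20, against 18.2% of all promoters. CCAAT stood in 7 of 8 and 18 of 20, against 38.0%. TTCGAA was found in 4 members and 1.57% of promoters, and TTCCCGC in Mcm3 and Mcm7 and 4.67% of promoters. A CCAAT box read on the other strand (ATTGG) can share bases with TTGGCGC, and a match is only a match of letters. Promoters of Mcm4, Ccna2, Ccne2, Aurkb and Tpx2 were not analysed here.

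Along the neuron lineage the members were low in horizontal basal cells, high in globose basal cells and precursors, and low again in neurons. In globose basal cells the 33 genes together made up 6350.1 and 4554 CPM in swap replicates 1 and 2, 6363 and 7560.1 CPM in control replicates 1 and 2, and 5037 and 4515 CPM in the gg8-tTA; tetOP2iresGFP and gg8-tTA libraries. Precursors held 4824, 4429, 2991, 4173, 4383 and 5256 CPM in the same order. Horizontal basal cells held 2390.0, 403, 939, 556, 1104 and 1058 CPM, immature OSNs 189 to 280.0 CPM and mature OSNs 121 to 195 CPM. The lowest globose or precursor library stood above the highest horizontal basal library, and all of these stood above every library of neurons. In summed RNA, fewer dividing cells and less member RNA per dividing cell cannot be told apart.

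**Figure D1:**
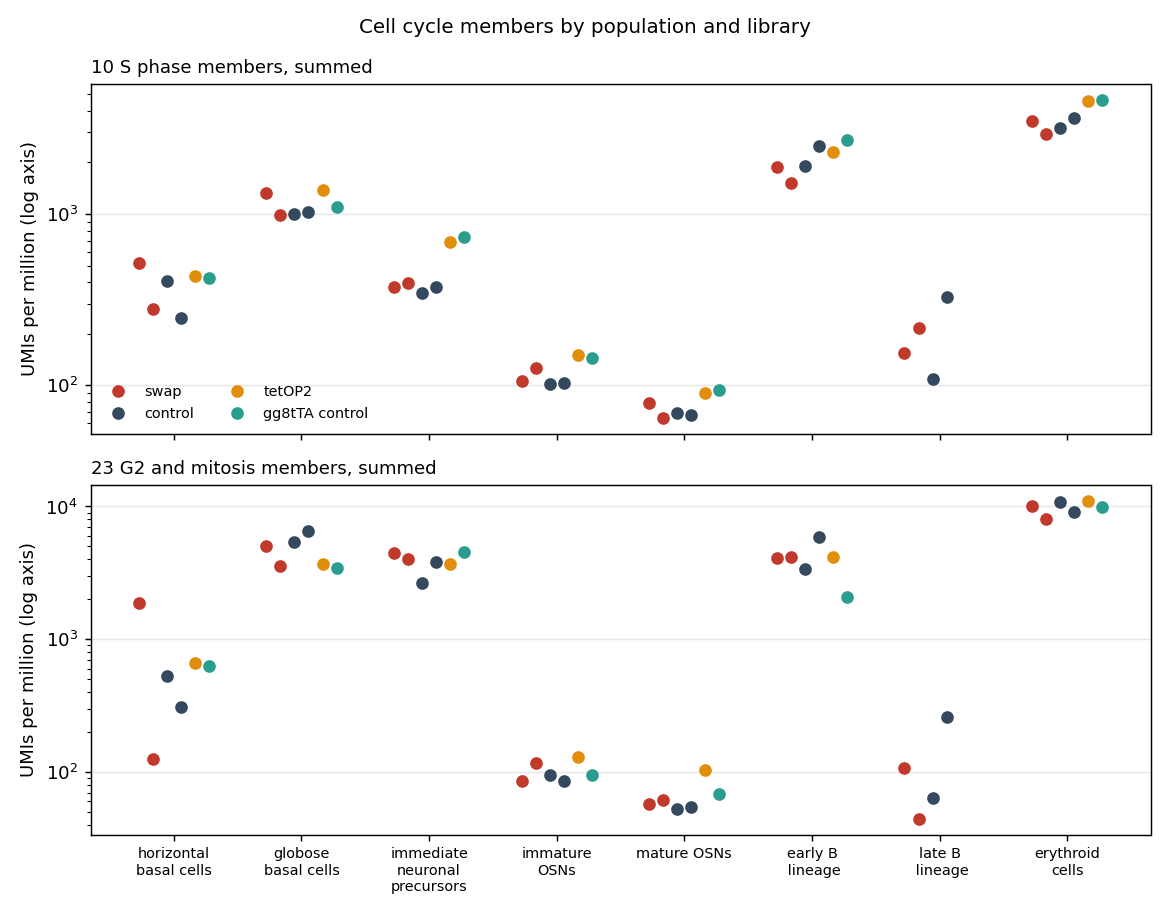
Summed level of the 10 S phase members (top) and the 23 G2 and mitosis members (bottom) in CPM on a log axis, 1 point per library and population, with late B lineage points only for the swap and control libraries and early B lineage points of the gg8-tTA libraries resting on 13 and 16 cells. Both sums were high in globose basal cells and erythroid cells and low in OSNs, and between globose basal cells and precursors the S phase sum was lower in every library while the G2 and mitosis sum was not.

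From horizontal to globose basal cells all 33 members rose (quasi-likelihood test of edgeR over 11526 genes with p-values adjusted by Benjamini and Hochberg, adjusted p below 0.05 and log2 fold change above 0.58, library as block). Of all genes tested, 22.6% rose by that rule. The median log2 fold change was 2.38 over the members, 1.47 over the S phase members and 2.68 over the G2 and mitosis members, against -0.01 over all genes.

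Among the mitotic members the rises were large. Top2a, which untangles sister chromatids, was at 181, 16.9, 46.5, 49.5, 61.7 and 42.1 CPM in horizontal basal cells (swap replicates 1 and 2, control replicates 1 and 2, gg8-tTA; tetOP2iresGFP, gg8-tTA) and at 547, 606, 523, 989.9, 359 and 306 CPM in globose basal cells. Ube2c, the E2 enzyme of the anaphase promoting complex, went from 178, 9.31, 18.9, 15.2, 58.8 and 101 to 608, 289.6, 751, 583, 607 and 554 CPM. For both genes the lowest globose library was above the highest horizontal one, with log2 fold changes of 2.99 (SE 0.36) and 3.37 (SE 0.44). Cenpf, a kinetochore protein of G2, rose by 3.19 (SE 0.42) and Nusap1, which bundles spindle microtubules, by 2.997 (SE 0.37). Mki67, the Ki-67 antigen that coats mitotic chromosomes, rose by 2.38 (SE 0.38).

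The smallest rises were of S phase members. Pcna, the sliding clamp of DNA polymerase, was at 119.8, 102, 112, 98.5, 141 and 121 CPM in horizontal basal cells and 294, 270.3, 251, 252, 402 and 303 CPM in globose basal cells, so that it was well above 0 in the resting population of every library. Its log2 fold change was 1.11 (SE 0.08). Mcm4, another helicase subunit, rose by 0.91 (SE 0.11) and Ccne2, the cyclin E2 that starts S phase with Cdk2, by 0.90 (SE 0.20). S phase members took 21.6% to 68.8% of all member UMIs in horizontal basal cells and 13.6% to 27.2% in globose basal cells.

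Related genes outside the 33 moved likewise in this step. Of 30 other replication genes tested 27 rose and 0 fell, and of 40 other G2 and mitosis genes 40 rose, among them Hmgb2, a chromatin protein of dividing cells (a log2 fold change of 1.90). Regulators were mixed: 11 rose and 2 fell of 19 E2F, RB and DREAM genes, 4 rose and 2 fell of 7 G1 cyclins and kinases, and 2 rose and 4 fell of 10 CDK inhibitors and exit genes. Of all 11526 genes tested, 5586 were called in either direction. Cdk4 and its partner cyclin D1 (Ccnd1) rose by 1.69 and 2.74 on the log2 scale, whereas the other D cyclins fell, Ccnd2 at -5.76 and Ccnd3 at -2.61, as did the antiproliferative gene Btg2 at -1.66.

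Between globose basal cells and immediate neuronal precursors the members parted by phase in the fit over all libraries. All 10 S phase members fell, and so did 3 of the 23 G2 and mitosis members, 13 of 33 in all, where 21.7% of 10902 genes fell by the same rule. No member rose. The median log2 fold change was -1.21 over the S phase members, -0.33 over the G2 and mitosis members and 0.01 over all genes tested. With the swap and control libraries alone 22 members fell (24.1% of 10334 genes), and with 1 library left out 11 to 17. With 1 library left out, 4373 to 4749 of 10623 to 10803 genes were called in either direction, and the share that fell is not given here. All 10 S phase members passed in each of these 7 fits. The further members called in the swap and control libraries were of G2 and mitosis, among them Top2a, Ccnb1, Ccnb2, Ccna2 and Cdk1. The summed G2 and mitosis members went from 5360 to 2643 and from 6530 to 3796 CPM in control replicates 1 and 2. In swap replicate 1 they went from 5020 to 4447 CPM, and in swap replicate 2 from 3565 up to 4034 CPM. In the gg8-tTA; tetOP2iresGFP library they went from 3666 to 3700 CPM and in the gg8-tTA library from 3416 to 4524 CPM.

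All 7 helicase and clamp genes fell. Mcm3 was at 124, 85.5, 72.1, 102, 112 and 85.2 CPM in globose basal cells and 13.3, 21.3, 16.8, 32.4, 49.1 and 40.5 CPM in precursors, in the library order above. Every precursor library was below every globose library for this gene, and the log2 fold change was -1.71 (SE 0.20) with an adjusted p of 1.10e-05 in edgeR's quasi-likelihood test. Pcna was at 104, 93.1, 82.2, 90.0, 173 and 189 CPM in precursors, below all 6 globose values, with a fold change of -1.29 (SE 0.11). Mcm5 fell by 1.42 (SE 0.17) and Mcm6 by 1.39 (SE 0.17) on the log2 scale, Mcm4 by 1.25 (SE 0.18), Mcm2 by 1.10 (SE 0.18) and Mcm7 by 0.79 (SE 0.09). For Mcm3 and Mcm5 the swap and control libraries lay lowest among the precursors, at 13.3 to 32.4 CPM of Mcm3 and 17.5 to 31.0 CPM of Mcm5, against 40.5 to 49.1 and 57.9 to 70.8 CPM in the gg8-tTA libraries. The same ordering held for the summed S phase members in precursors, at 377, 395, 348 and 377 CPM in the swap and control libraries and 684 and 732 CPM in the gg8-tTA; tetOP2iresGFP and gg8-tTA libraries. Mouse line and library cannot be told apart in that ordering.

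The enzymes that feed replication followed the same course. Tyms, which makes thymidylate, fell by 1.17 (SE 0.18) and Rrm2, the small subunit of ribonucleotide reductase, by 1.14 (SE 0.17). Rrm2 was at 113, 46.9, 77.7, 71.0, 118 and 91.2 CPM in globose basal cells and 37.5, 18.4, 30.1, 16.6, 64.1 and 74.5 CPM in precursors. Ccne2 fell by 0.82 (SE 0.19).

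Of the mitotic genes, those that fell were Bub1b, a kinase-like protein of the spindle checkpoint (-0.88 (SE 0.18)), Aurkb, the kinase of the chromosomal passenger complex (-0.76 (SE 0.19)), and Cdc20, the activator of the anaphase promoting complex (-0.67 (SE 0.19)). Cdc20 was not called without control replicate 1 (-0.44) or without control replicate 2 (-0.57), nor was Aurkb without control replicate 1 (-0.53). The cyclins and their kinase did not pass the minimum fold change: Ccnb2 was at -0.55 (SE 0.18), Ccna2 at -0.52 (SE 0.15), Cdk1 at -0.46 (SE 0.17) and Ccnb1 at -0.30 (SE 0.19). Mki67 was at 281, 292, 174, 259.8, 98.2 and 134 CPM in precursors against 358, 275, 288, 543, 129.8 and 109 CPM in globose basal cells. These ranges overlap, and the log2 fold change was -0.33 (SE 0.14) with an adjusted p of 0.0529 in edgeR's quasi-likelihood test.

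Spindle genes stood nearest to 0. Their 8 members had a median log2 fold change of -0.10. Nusap1 was at -0.12 (SE 0.15), Cenpe, the kinetochore motor, at -0.07 (SE 0.18), Tpx2, which activates Aurora A on the spindle, at -0.09 (SE 0.16), Hmmr, a spindle assembly protein, at 0.14 (SE 0.16), and Cenpf at 0.03 (SE 0.18). Aurka, the Aurora A kinase of the spindle poles, was at -0.01 (SE 0.15). Ube2c had the highest value, 0.26 (SE 0.19), and was at 804, 635, 417, 454, 717 and 972 CPM in precursors: swap replicates 1 and 2 and the gg8-tTA pair lay at or above their globose levels, and both controls lay below theirs. That difference between genotypes is taken up below. The other members, Kif11 and Kif23 (motors of the bipolar spindle and of its midzone), Prc1 (which crosslinks the midzone), Top2a, Plk1 and Bub1 (kinases of mitotic entry and of the checkpoint), Birc5 (survivin) and Cdca8 (borealin, of the chromosomal passenger complex), lay between -0.55 and -0.18.

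**Figure D2:**
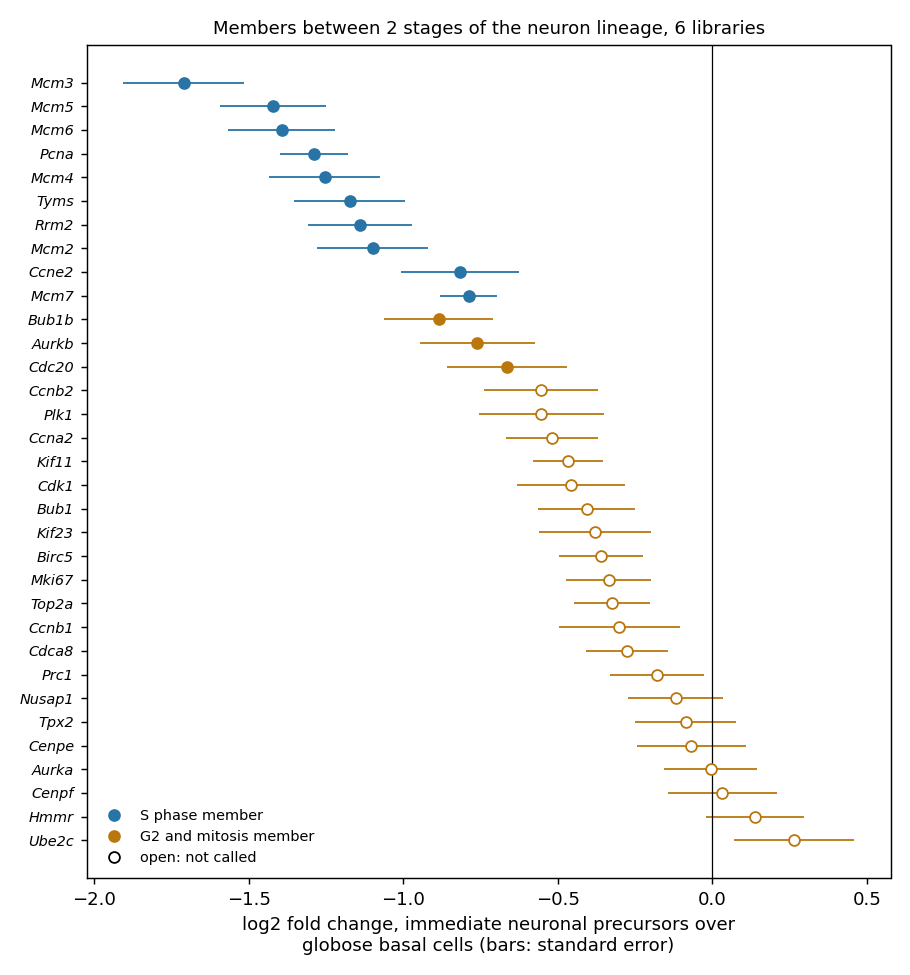
Log2 fold change of each of the 33 members from globose basal cells to immediate neuronal precursors over 6 libraries, with standard errors, filled where the gene passed the test. The 10 S phase members lie from -1.71 to -0.79 and are all filled, whereas 20 of 23 G2 and mitosis members are open and reach up to 0.26. Some open members had an adjusted p below 0.05 in edgeR's quasi-likelihood test and missed only the minimum fold change.

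The S phase share of member UMIs gave the same picture in every library. It was 21.0% and 21.7% in globose basal cells of swap replicates 1 and 2, 15.8% and 13.6% in the controls and 27.2% and 24.4% in the gg8-tTA; tetOP2iresGFP and gg8-tTA libraries. In precursors it was 7.82% and 8.91%, 11.6% and 9.03%, and 15.6% and 13.9%. It was lower in precursors than in globose basal cells in each of the 6 libraries. After each cell was thinned to 3000 UMIs, 46 of 432 globose basal cells (10.6%) had at least 3 UMIs of S phase members and fewer of the others, 125 (28.9%) had at least 3 UMIs of G2 and mitosis members only and 144 (33.3%) had both. Of 708 precursors 14 (1.98%) had S phase members only, 160 (22.6%) the G2 and mitosis members only and 67 (9.46%) both. These counts pool the 6 libraries, and control replicate 1 gave the most gated precursors, 281 before cells too shallow to thin were left out.

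Genes of both phases outside the 33 fell in this step as well. Of 30 other replication genes 21 fell and 0 rose (median -0.85), among them Gins2 of the helicase complex (by 2.37) and the DNA ligase Lig1 (by 1.18), and of 40 other G2 and mitosis genes 17 fell and 1 rose (median -0.46). The other G2 and mitosis genes thus fell more often than the 23 members, 3 of which fell, and the difference between lists was not tested. All 6 called G1 cyclins and kinases of 7 fell, Ccnd1 by 2.45. The CDK inhibitor Cdkn2d rose by 1.57, Ccng2, a cyclin linked to cycle arrest, by 1.70, and Rb1, the retinoblastoma protein that restrains E2F, by 1.36. Of the E2F, RB and DREAM genes 3 rose and 4 fell of 19, and of the inhibitors and exit genes 3 rose and 1 fell of 10. Over all genes, 4662 of 10902 were called in either direction, so calls were common outside these lists too.

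All 33 members fell from precursors to immature OSNs, where 19.9% of 12925 genes fell. The median log2 fold change was -5.40 over the members, -2.50 over the S phase members and -5.81 over the G2 and mitosis members, against 0.08 over all genes. Hmmr fell by 7.45 (SE 0.20), Bub1b by 6.67 (SE 0.28) and Ube2c by 6.59 (SE 0.23). Immature OSNs had 3.51, 3.74, 6.38, 5.39, 15.4 and 10.7 CPM of Ube2c and 5.70, 5.61, 8.23, 2.89, 6.55 and 6.59 CPM of Mki67, and in no library did either reach the lowest precursor value. The S phase members fell less. Pcna, which also serves DNA repair, was still at 47.0, 44.1, 44.5, 41.0, 56.7 and 53.5 CPM in immature OSNs and fell by 1.35 (SE 0.13), Mcm4 by 1.18 (SE 0.17) and Mcm7 by 1.56 (SE 0.09). Among the mitotic members Prc1 fell least, by 3.04 (SE 0.14), to 25.7, 32.3, 31.5, 27.9, 14.0 and 12.02 CPM. S phase members made up 51.7% to 60.4% of the few member UMIs left in immature OSNs.

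In the same step 40 of 40 other G2 and mitosis genes and 26 of 29 other replication genes fell, among them Cdca3 (by 5.35) and Spc25 of the kinetochore (by 5.21), as did Cks1b, a subunit of the cyclin kinases (by 3.58). The CDK inhibitor Cdkn1a rose by 2.72 and the cyclin Ccnd3 by 1.48. Rb1 rose by 0.79. Of the regulators, 1 rose and 12 fell of 19 E2F, RB and DREAM genes, 1 rose and 4 fell of 7 G1 cyclins and kinases, and 3 rose and 5 fell of 10 inhibitors and exit genes. This step had 6203 of 12925 genes called in either direction.

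Counted per cell, the share of cells with at least 5 member UMIs after thinning to 3000 UMIs was 63.6% to 77.4% in globose basal cells, 18.5% to 45.0% in precursors and 3.73% to 18.7% in horizontal basal cells. It was 0% to 0.618% in immature and 0% to 0.507% in mature OSNs, which no longer divide and give the background. Without thinning the ranges were 71.9% to 85.6%, 29.2% to 59.6%, 12.9% to 38.8% and, in mature OSNs, 3.26% to 5.41%. Globose cells over the minimum of 5 had a median of 19747 to 31073 UMIs in all against 10977 to 15609 UMIs in those under it. Of the precursors 4 to 22 per swap or control library were too shallow to thin.

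**Figure D3:**
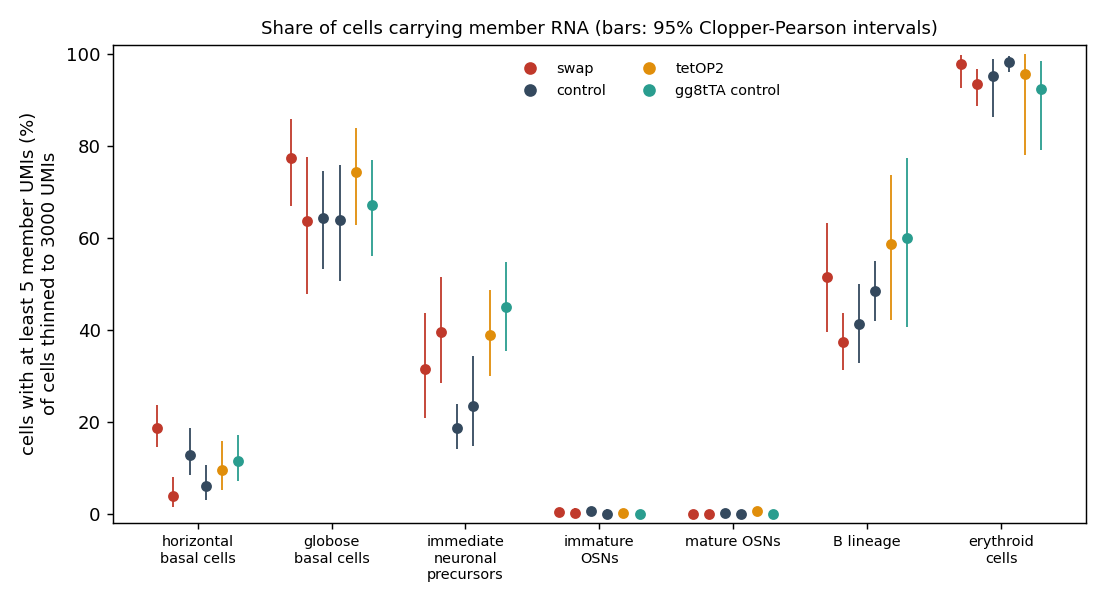
Percent of cells with at least 5 UMIs of the 33 members after thinning to 3000 UMIs, 1 point per library with its exact 95% Clopper-Pearson interval, which covers counting error only. Erythroid cells lie at 92.3% to 98.3%, globose basal cells at 63.6% to 77.4%, and OSNs at under 1%.

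In the blood lineages the members were highest in erythroid cells. Summed, they were at 13649.6, 10973, 13964, 12756, 15625 and 14588 CPM in erythroid cells and 5678, 4110.5, 4518, 5923, 6948 and 5567 CPM in B lineage cells, with no overlap of the libraries. From B lineage to erythroid cells 31 of 33 members were higher, where 24% of 8862 genes were, with a median log2 fold change of 1.50 over the members and -0.06 over all genes. Ube2c was at 447, 347, 326, 339, 848 and 408 CPM in B lineage cells and 1821, 1421, 2356, 1456, 2594 and 2368 CPM in erythroid cells, a fold change of 2.39 (SE 0.15). Aurka was higher by 2.28 (SE 0.20), Hmmr by 2.17 (SE 0.15) and Rrm2 by 2.05 (SE 0.12). Only Top2a and Bub1b did not pass. Top2a was at 448, 479.6, 419.5, 741, 532 and 334 CPM in B lineage cells and 567, 621, 545, 668, 428 and 408 CPM in erythroid cells, with overlapping ranges and a log2 fold change of 0.36 (SE 0.13). Bub1b was at 0.12 (SE 0.13).

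Against globose basal cells, erythroid cells had 32 of 33 members higher, where 25.2% of 10684 genes were, with a median of 1.78 over the members and -0.15 over all genes tested. Rrm2 differed most, at 888, 563, 826, 719.9, 1210.2 and 1461 CPM against 113, 46.9, 77.7, 71.0, 118 and 91.2 CPM, a log2 fold change of 3.99 (SE 0.17). Ccne2 followed at 2.85 (SE 0.16), Birc5, an inhibitor of apoptosis and passenger protein, at 2.74 (SE 0.15) and Mki67 at 2.53 (SE 0.14). Top2a (0.59 (SE 0.13)) and Cenpf (0.60 (SE 0.18)) were just past the minimum fold change, and Bub1b (0.28 (SE 0.16)) was not called. DESeq2 called 29 of the 33, with 6140 of 10684 genes called in either direction. Rrm2 and Ccne2 thus differed most between these dividing populations, and Bub1b, Top2a and Cenpf least.

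Part of the regulators differed between these populations. Of 30 other replication genes 22 were higher and 1 lower in erythroid than in B lineage cells and 29 higher than in globose basal cells. Of 40 other G2 and mitosis genes 33 and 32 were higher. Cyclin D3 (Ccnd3) was higher in erythroid than in globose basal cells by 5.69, Cdkn2d by 4.03 and E2f2, an E2F activator, by 3.83, whereas Ccnd1 (-6.96), the inhibitor Cdkn1c (-3.69) and E2f5 (-3.12) were lower. Against B lineage cells Tfdp2 (2.87), a partner of the E2F proteins, E2f4 (2.46) and Ccne1 (2.87) were higher, and Ccng2 (-3.20), Btg1 (-2.90) and Ccnd2 (-2.18) lower. The E2F, RB and DREAM genes had 11 higher and 2 lower of 19 against B lineage cells and 12 and 1 against globose basal cells, the G1 cyclins and kinases 2 and 1 of 7 and 4 and 2 of 7, and the inhibitors and exit genes 3 and 3 of 10 and 5 and 3 of 10. In either direction 4720 of 8862 genes were called against B lineage cells and 6493 of 10684 against globose basal cells.

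Within the B lineage, cells with a UMI of Dntt, Igll1 or Vpreb1 (early) had all 33 members higher than cells marked as late, where 19.6% of 6222 genes were higher. Only the swap and control libraries held enough cells, with 51 to 100 early and 30 to 186 late cells each. Late cells held fewer UMIs per cell in each library. In swap replicate 2, 100 early cells summed to 777015 UMIs and 186 late cells to 540037. The early mark needs a detected UMI, and the groups were not matched on depth. Mki67 was at 571, 426, 308 and 807 CPM in early and 0, 3.70, 0 and 37.9 CPM in late cells of swap replicates 1 and 2 and control replicates 1 and 2. Rrm2 was at 312, 157, 271 and 259.7 against 0, 1.85, 0 and 2.53 CPM. The median log2 fold change was 4.74 over the members, 3.24 over the S phase members, 5.26 over the G2 and mitosis members and 0.04 over all genes. Pcna, at 401, 288, 469 and 637 CPM early and 48.6, 98.1, 63.7 and 129 CPM late, had the smallest value, 2.24 (SE 0.20). Kif11, at 92.8, 140.3, 91.7 and 252 CPM early, had 0 UMIs in all 4 late sums, which makes it at least 66.6-fold higher in early cells, taking 3 counts over the 1195584 late UMIs as the floor. With Kif11 at that bound the median stayed 4.74. All 33 were called with any 1 library left out. Late cells of control replicate 2 held the most member RNA left, 586 CPM against 262, 261 and 172 CPM in the others.

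Around them 26 of 28 other replication genes, 36 of 36 other G2 and mitosis genes and 10 of 14 E2F, RB and DREAM genes were higher in early cells, with Smc2 of condensin at 3.72, Hmgb2 at 3.58 and Dut, which clears dUTP, at 3.18. Btg1 (-2.51), Ccnd2 (-1.68) and Btg2 (-1.06) were lower. Of the G1 cyclins and kinases 4 were higher and 1 lower of 5, and of the inhibitors and exit genes 3 and 2 of 9.

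The swap was visible in the targeted gene. Cbx1 was at 3.41 and 7.35 CPM in globose basal cells of swap replicates 1 and 2 and 203 and 114 CPM in the controls, at 8.47 and 6.79 and 228 and 125 CPM in precursors and at 0.722 and 0.582 and 49.6 and 67.03 CPM in horizontal basal cells. It fell in all 3, with log2 fold changes of -4.92, -4.56 and -6.34 (adjusted p of 0.0274, 0.00198 and 0.0324 in edgeR's quasi-likelihood test). In B lineage and erythroid cells Cbx1 was not called, at 85.3 and 106 against 170.1 and 134 CPM and 49.8 and 53.3 against 59.0 and 53.4 CPM. Cbx5 was at 305 and 319.9 CPM in swap and 152 and 281 CPM in control globose basal cells, and its log2 fold changes of 0.64 there and 1.11 in precursors did not pass.

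No member was called between swap and control mice in any of the 5 populations, by edgeR or by DESeq2, in fits without the replicate number. The share of all genes called by edgeR was 0.0411% of 9735 in globose basal cells, 0.0468% of 8545 in precursors, 0.0199% of 10044 in horizontal basal cells, 0% of 8521 in B lineage cells and 0% of 7658 in erythroid cells. At an unadjusted p below 0.05, 1 member passed in globose basal cells (2.19% of all genes), 6 in precursors (2.69%), and 0 in horizontal basal cells (1.74%), B lineage cells (1.47%) and erythroid cells (3%). After adjustment DESeq2 called 8 of 9735, 8 of 8545, 9 of 10044, 4 of 8521 and 15 of 7658 genes in these populations, in the same order, and no member.

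In globose basal cells the S phase members and the mitotic members lay on opposite sides of 0. The summed S phase members were at 1330.4 and 989 CPM in swap replicates 1 and 2 and 1003 and 1029.7 CPM in the controls (1160 ± 241 against 1016 ± 19.1, mean ± SD, n = 2 each), and the G2 and mitosis members at 5019.7 and 3565 and 5359.9 and 6530.4 CPM (4292 ± 1029 against 5945 ± 828). The G2 and mitosis sums of the swap libraries lay below both controls, and the S phase sum of swap replicate 2 lay below both controls while that of replicate 1 lay above. The log2 fold changes of the 10 S phase members ran from 0.04 to 0.50 with a median of 0.28, those of the 23 others from -0.66 to -0.04 with a median of -0.32, against 0.00 over all genes. Both swap libraries were above both controls for 3 members (7.7% of all genes) and below for 9 (17.4%). Without swap replicate 2 the median over all 33 members turned from -0.25 to 0.07. The thinned share of cells with at least 5 member UMIs leaned the other way from the G2 and mitosis sums. It was 70.5% ± 9.72 in swap and 64.1% ± 0.248 in control libraries (mean ± SD, n = 2 each). That difference of 6.40 percentage points was -0.474 without swap replicate 1 and 13.3 without swap replicate 2.

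Cenpe, at 154 and 143 CPM in swap and 219.7 and 283 CPM in control globose basal cells, was the 1 member under 0.05 before adjustment (-0.66 (SE 0.26), adjusted p = 1.00, edgeR). Cenpf was at 563 and 341 against 651 and 878 CPM (-0.66 (SE 0.33)). Mcm5 had the highest fold change among the S phase members, at 108 and 88.2 against 79.1 and 67.9 CPM (0.50 (SE 0.29)). For each of these 3 genes the libraries of the genotypes did not overlap, and none passed the adjusted test. Among the other replication genes 29 of 29 tested had a positive value, with a median of 0.36, and none was called.

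Markers of other cells also differed between these globose basal sums. All 7 neutrophil lineage markers were detected in swap replicate 2 and control replicate 2, and 5 of 7 in swap replicate 1 and control replicate 1, where Elane and Mpo were at 0. Their sum was 363 and 620 CPM in the swap libraries and 31.5 and 67.9 CPM in the controls. The 5 mural cell markers summed to 234 and 795 CPM and 49.0 and 113 CPM, and the 5 respiratory ciliated markers to 987 CPM in control replicate 2 and 174 to 293 CPM in the other 3. Without cells of over 5 neutrophil UMIs the members were at 6793 and 4923 CPM in swap and 6393 and 7730.4 CPM in control cells, so that swap replicate 1 moved above control replicate 1. Precursor markers summed to 297 and 207 CPM in swap and 269 and 594 CPM in control globose basal cells. Sustentacular markers summed to 505 and 494 CPM in swap and 332 and 870 CPM in control cells. The part of mural, ciliated, precursor and sustentacular RNA in the members' values was not tested.

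In precursors the mitotic members leaned the other way. The G2 and mitosis members were at 4447 and 4034 CPM in swap and 2643 and 3796 CPM in control precursors (4241 ± 292 against 3219 ± 816) and the S phase members at 377 and 395 and 348 and 377 CPM (386 ± 12.2 against 362 ± 20.3). All 23 G2 and mitosis members had a positive log2 fold change, with a median of 0.41, and 6 of 10 S phase members did, with a median of 0.12, against -0.00 over all genes. Both swap libraries lay above both controls for 15 members (13.7% of all genes) and below for 0 (13%).

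Control replicate 1 stood apart in the make-up of its precursors, by a split added after these values were seen. It is the control labelled wild type with the Cre, and that genotype and the library cannot be told apart here. Of its 281 precursors 93 (33.1%) had a UMI of Neurog1 and none of Neurod1, transcription factors of the early and later precursor, against 7.06% to 14.1% in the other 5 libraries. Such cells were low in G2 and mitosis members, at 50.9 to 196 CPM in the swap and control libraries, although 3 of these 4 sums rest on 6 to 11 cells. Precursors with both Neurog1 and Neurod1 held 6112 and 4776 CPM of these members in swap and 3511 and 4051 CPM in control libraries, so that the genotypes did not overlap within them. With globose basal cells that had both markers included, the values were 6365 and 4486 CPM in swap and 3604 and 4747 CPM in control libraries, and the genotypes overlapped.

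Ccnb2 and Ube2c had the highest log2 fold changes among the members. Ccnb2, a B cyclin, was at 100.4 and 82.4 CPM in swap and 46.9 and 53.7 CPM in control precursors, a log2 fold change of 0.87 (SE 0.26). Ube2c was at 804 and 635 and 417 and 454 CPM, a log2 fold change of 0.73 (SE 0.23). Both genes had libraries that did not overlap between genotypes, and an adjusted p of 1.00 in edgeR's quasi-likelihood test. Cdca8 (at 309.6 and 229.8 and 166 and 178 CPM), Ccnb1 (134 and 96.0 and 70.6 and 79.8 CPM), Cdc20 (119 and 63.0 and 52.5 and 57.6 CPM) and Birc5 (219 and 153 and 129 and 122 CPM) were the other 4 under 0.05 before adjustment, with log2 fold changes from 0.56 to 0.72. Fold changes of the same size stood in Ccne2 (0.72 (SE 0.47)), Plk1 (0.69 (SE 0.38)), Aurkb (0.69 (SE 0.33)) and Bub1 (0.65 (SE 0.30)), which were not under 0.05 before adjustment. Cenpf, at 555 and 584 and 334 and 619 CPM, and Top2a, at 429 and 475 and 289 and 539 CPM, overlapped. Within replicate number 1 the swap and control sums of all 33 members were 4824 and 2991 CPM, and within number 2 they were 4429 and 4173 CPM.

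Per cell, 31.4% and 39.5% of swap precursors and 18.5% and 23.5% of control precursors had at least 5 member UMIs after thinning, with 95% Clopper-Pearson intervals of 20.9% to 43.6%, 28.4% to 51.4%, 14.0% to 23.8% and 14.8% to 34.2%. The means were 35.5% ± 5.69 and 21.0% ± 3.48 (SD, n = 2), a difference of 14.5 percentage points, for which an exact permutation test of 2 against 2 libraries cannot give a two-sided p below 0.333. Without thinning the values were 41.0% and 53.7% against 29.2% and 50.6%, where swap replicate 1 fell below control replicate 2. The libraries of the gg8-tTA line, at 38.9% and 45.0%, lay as high as the swap pair. Markers of the neighbouring stages, all detected in every library, were also present in these precursor sums: the 5 globose basal markers summed to 1065 and 763 CPM in swap and 854 and 719 CPM in control precursors, and the 5 immature OSN markers to 841 and 1159 CPM and 1181 and 1363 CPM. The globose basal lists overlapped between genotypes, the immature OSN markers were lower in both swap libraries, and their part in the result was not tested.

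The change from globose basal cells to precursors was then compared between genotypes in 1 fit with library as block, a comparison added after these values were seen. The members' median log2 difference (swap change minus control change) was 0.67 against 0.01 over all genes, with 27 of 33 above 0. Ube2c (1.30, SE 0.26, adjusted p = 0.0188) and Cdc20 (1.11, SE 0.25, adjusted p = 0.0426) passed the quasi-likelihood test of edgeR after Benjamini-Hochberg adjustment, 2 of 33 where 0.542% of 10334 genes did. Ube2c went from 608 and 289.6 to 804 and 635 CPM in swap and from 751 and 583 to 417 and 454 CPM in control libraries, and Cdc20 from 165 and 85.5 to 119 and 63.0 and from 184 and 154 to 52.5 and 57.6 CPM. Both genes were lower in precursors in each control library. In swap libraries Ube2c was higher and Cdc20 lower. In the gg8-tTA; tetOP2iresGFP and gg8-tTA libraries, which are not in this fit, Ube2c went from 607 and 554 to 717 and 972 CPM. Cdc20 went from 153 and 198 to 134 and 204 CPM there. The make-up of the precursors of control replicate 1 and the markers of other cells in the globose basal sums, given above, were not adjusted for. At an unadjusted p below 0.05, 20 members passed (6.97% of all genes). DESeq2 called 0 members (0.0484% of all genes), with 13 at p below 0.05 (1.68%). With 1 library left out Ube2c was still called without swap replicate 1 or control replicate 2, and no member without swap replicate 2 or control replicate 1, so that Cdc20 was called in none of these 4 fits.

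**Figure D4:**
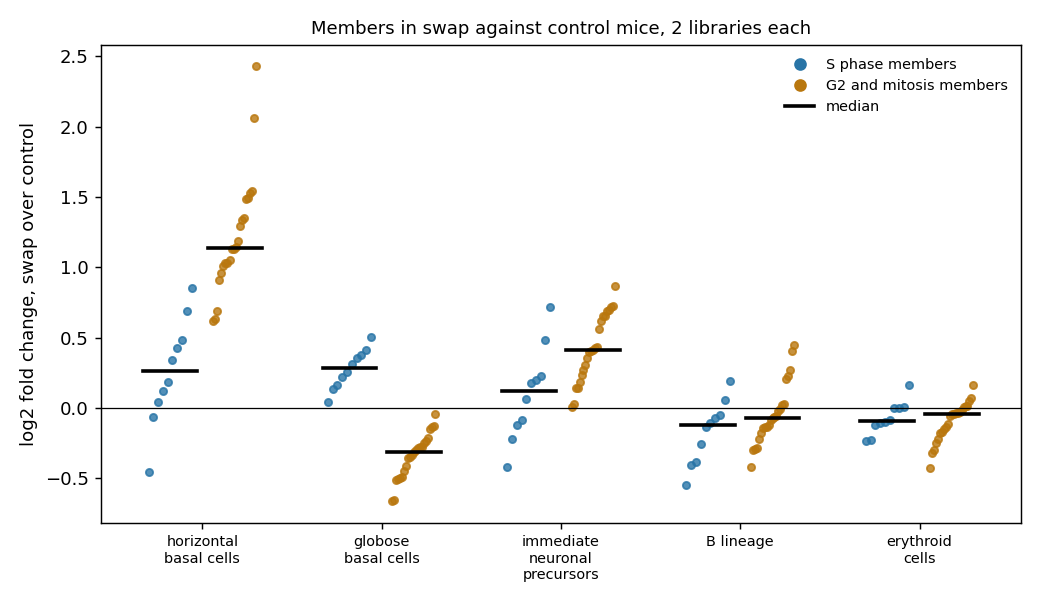
Log2 fold change of each member, swap over control, in 5 populations, with S phase members and G2 and mitosis members apart and a bar at each median. The medians are 0.28 and -0.32 in globose basal cells, 0.12 and 0.41 in precursors and 0.26 and 1.14 in horizontal basal cells. No single member was called, and in horizontal basal cells the summed members of the swap libraries lay on opposite sides of both controls.

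In horizontal basal cells the swap libraries lay on opposite sides of the controls. The 33 members were at 2390.0 CPM in swap replicate 1 and 403 CPM in swap replicate 2, with the controls between them at 939 and 556 CPM. Mki67 was at 159 and 11.6 CPM in swap and 33.7 and 33.2 CPM in control libraries, Cdk1, the kinase that drives mitotic entry, at 132 and 8.73 and 49.6 and 17.5 CPM, and Cenpf at 185 and 6.98 and 36.8 and 28.0 CPM. For each of these genes swap replicate 1 was the highest of all 6 libraries and swap replicate 2 the lowest. S phase members differed less, with Pcna at 119.8 and 102 and 112 and 98.5 CPM. The G2 and mitosis members as a whole were at 1873 and 126 CPM in the swap libraries. In no member did both swap libraries lie above both controls (11.2% of all genes) or below both (9.66%).

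The fold changes turned on which swap library was kept. Plk1 was too low to be tested, and 32 members were. With all 4 libraries the median log2 fold change was 1.02, and Ube2c had the largest value (2.43 (SE 1.10)). Without swap replicate 1 the median was -1.42 and 0 members were called (0.298% of 10416 genes). Without swap replicate 2 it was 1.90 and 18 were called (1.36%). Without control replicate 1 there were 8 calls (1.08%) and without control replicate 2 there was 1 (0.607%). Within replicate number 1 the swap library was higher than its control and within number 2 it was lower. The 7 neutrophil lineage markers were all detected in swap replicate 1 and summed to 387 CPM there, against 56.4 CPM in swap replicate 2 and 30.2 and 60.0 CPM in the controls. Leaving out the cells with over 5 such UMIs kept 304 of its 317 cells and 2510.2 CPM of the members, against 410, 945 and 567 CPM in swap replicate 2 and the controls, so the gap was as large without them.

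**Figure D5:**
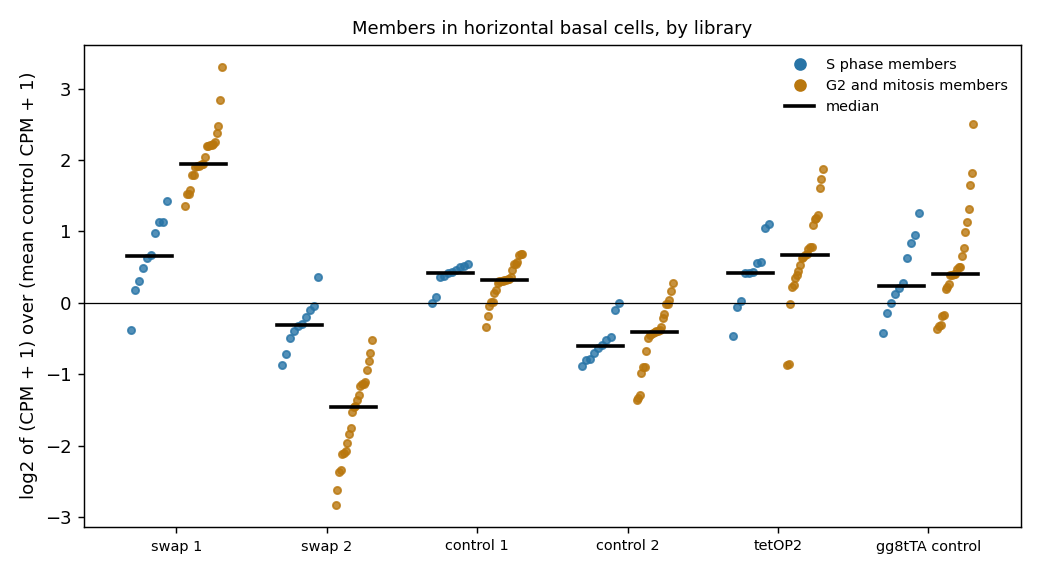
Level of each member in horizontal basal cells of each library, as the log2 ratio of CPM + 1 to the mean control CPM + 1, with S phase members and G2 and mitosis members apart and a bar at each median. Most G2 and mitosis members of swap replicate 1 lie above 0 and most of swap replicate 2 below it, and the S phase members spread less.

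In the blood lineages the summed levels of the genotypes overlapped. B lineage cells held 5678 and 4110.5 CPM of the members in swap and 4518 and 5923 CPM in control libraries, and erythroid cells 13649.6 and 10973 and 13964 and 12756 CPM. The median log2 fold change was -0.09 in B lineage cells and -0.06 in erythroid cells, against 0.00 and 0.01 over all genes. The extremes were Ccne2 in B lineage cells (-0.55 (SE 0.31)) and Aurka in erythroid cells (-0.43 (SE 0.26)). Both swap libraries lay above both controls for 2 members of B lineage cells (9.55% of all genes) and below for 3 (12.5%), and for 0 (14.9%) and 1 (14.2%) in erythroid cells. The thinned share of cells with at least 5 member UMIs was 51.4% and 37.3% in swap and 41.2% and 48.3% in control B lineage cells, and 92.3% to 98.3% over all libraries in erythroid cells. Among early B lineage cells it was 57.5% and 49.4% in swap and 61.0% and 74.1% in control libraries, lower in both swap libraries by a mean of 14.1 percentage points, and the exact test has the same limit as in precursors. Without thinning these values overlapped, at 56.9% and 48.0% against 47.3% and 64.3%, as did the summed members of early cells, at 5948 and 5656 against 5286 and 8410 CPM. In B lineage cells 51 to 253 cells per swap or control library were too shallow to thin. Neutrophil markers stood at 129 and 687 CPM in swap and 30.8 and 214 CPM in control B lineage cells, and their part in these values was not tested.

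The gg8-tTA libraries, 1 per genotype, allow no test, and exact Poisson intervals cover counting error only. In globose basal cells the members summed to 5037 CPM (4922 to 5154) in the gg8-tTA; tetOP2iresGFP library and 4515 CPM (4408 to 4624) in the gg8-tTA library, and in precursors to 4383 CPM (4277 to 4492) and 5256 CPM (5136 to 5378). The median ratio over the 33 members, first library over second, was 1.09 in globose basal cells, 0.854 in precursors, 1.12 in horizontal basal cells, 1.31 in B lineage cells and 1.08 in erythroid cells. The intervals of the libraries lay apart for 6, 8, 3, 4 and 2 of the 33, where 4.21%, 3.23%, 6.1%, 3.41% and 2.57% of all genes with at least 10 UMIs in the pair lay apart. Genes with more UMIs have narrower intervals, and the members were not matched to other genes on that. In precursors all 8 were lower in the gg8-tTA; tetOP2iresGFP library, among them Ube2c at 717 CPM (674 to 762) against 972 CPM (921 to 1026) and Cdc20 at 134 CPM (116 to 154) against 204 CPM (181 to 229). In globose basal cells Cdk1 was at 294 CPM (267 to 323) against 200 CPM, and in B lineage cells Ube2c was at 848 CPM (761 to 943) against 408 CPM (335 to 491). The transgene and the library cannot be told apart in these values.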

How the data were processed

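The authors deposited UMI counts per gene and cell barcode for each of 6 libraries, made with Cell Ranger with introns included and not normalized; the file headers name Cell Ranger 3.1.0 in 4 libraries, and the submitters' processing notes name mm10. Kept cells had at least 1000 UMIs and 500 genes, and predicted doublets were removed at 0.8% per 1000 cells (53 to 207 a library). Each cell took the name of its best-scoring marker list (mean of standardized log values) if at least 2 of its markers and 1 required marker had a UMI. Counts were summed per library and population (at least 20 cells) and tested on all genes with edgeR 4.0.16 (R 4.3.3), TMM and its filter on low counts, and called at an adjusted p below 0.05 and an absolute log2 fold change above 0.58. Contrasts of populations had the library as block. DESeq2 1.42.0, DESeq2 size factors, no filter, stricter gates, doublets kept and each library left out were alternatives. Named genes were the 33 members, Cbx1 and Cbx5, and, of each other cell cycle list, those called between genotypes or the 3 with the smallest adjusted p in each direction of a population contrast. The members and lists were chosen with earlier results of these data known. The fits were checked on simulated sums in which 200 genes had been changed. Part of the genotype labels and some marker genes are not reported here.

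Counts per cell were thinned to 3000 UMIs for shares. Depths limit precision: kept cells had medians of 9991 to 11543 UMIs, and intervals (95% Clopper-Pearson or exact Poisson) cover counting error only. Promoters came from a RefSeq table of GRCm38.p6 and were not used with coordinates of the files, which hold none. The bulk assays of the study were not analysed here.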

Additional observations from a re-analysis of the deposited data

Results flagged for a closer look

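Ube2c and Cdc20 changed from globose basal cells to immediate neuronal precursors by different amounts in swap and control libraries, by a test of the difference itself. For Ube2c, the E2 enzyme of the anaphase promoting complex, the log2 change was 1.30 higher in swap than in control libraries (SE 0.26, adjusted p = 0.0188, edgeR's quasi-likelihood test), and for Cdc20, which activates that complex, it was 1.11 higher (SE 0.25, adjusted p = 0.0426). Ube2c was higher in precursors than in globose basal cells in both swap libraries and lower in both controls. It was also higher in the gg8-tTA; tetOP2iresGFP library (607 to 717 CPM) and the gg8-tTA library (554 to 972 CPM), outside this fit. Cdc20 went from 153 to 134 and from 198 to 204 CPM there. Of the precursors of control replicate 1, the control labelled wild type with the Cre, 33.1% had Neurog1 without Neurod1, against 7.06% to 14.1% in the other libraries. Neutrophil and mural markers were higher in the globose basal sums of both swap libraries than in those of both controls. The part of these differences in the result was not tested. The values with 1 library left out ran from 0.926 to 1.68 for Ube2c and from 0.816 to 1.35 for Cdc20. Cdc20 was called in none of these 4 fits, and Ube2c was not called without swap replicate 2 or without control replicate 1. DESeq2 called neither. The comparison was added after the data were seen, and the groups hold 2 libraries each.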

How the results depend on the processing

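The calls between populations held their direction under every alternative run. All 33 members remained called from horizontal to globose basal cells, from precursors to immature OSNs and between early and late B lineage cells under each alternative, and erythroid cells had 31 members higher than B lineage cells in each. Against globose basal cells 29 to 32 were called. From globose basal cells to precursors 22 members fell with the swap and control libraries only, and 11 to 17 with 1 library left out, where the cause was not tested. The differences between 2 swap and 2 control libraries rest on single libraries: calls in horizontal basal cells ran from 0 to 18 with 1 library left out, and without swap replicate 1 31 of 32 members were negative, against 2 with all libraries. Over these fits Ube2c ran from -0.87 to 3.33, Cenpe from -0.59 to 2.30 and Ccnb1 from -1.45 to 3.29. No other population gave a call with a library left out.

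With the replicate block 3 members were called in precursors (Ccnb2, Ube2c and Cdca8, with 118 of 8545 genes called), and it changed no other call. Same-numbered libraries deviated together, with correlations of 0.213 to 0.552 over the 5 populations, but 2 pairs are too few to take the numbers as pairing. The difference in the share of B lineage cells with at least 5 member UMIs moved from -0.398 to -10.6 percentage points when cells were thinned to 5000 UMIs, and that of erythroid cells from -1.01 to 4.33 with 1500 UMIs and at least 3 member UMIs, a setting chosen after seeing the data. With 1 library left out the precursor difference of 14.5 points ran from 10.4 to 18.5. The globose difference of 6.40 points, swap above control, ran from -0.474 to 13.3. Small numbers of globose basal cells, 45 to 90 a library, and a single library per gg8-tTA genotype limit what these data can show.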
